A study of Mus musculus with 12 samples.

Results

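Folate and one-carbon metabolism was followed through 30 genes of folate uptake, the cytosolic and mitochondrial folate cycles, glycine cleavage, purine synthesis, the methionine cycle and transsulfuration. Each gene was represented by its brightest annotated probe, and it was tested if that probe had a detection p-value under 0.05 on at least 4 of 12 arrays. Of the 30 genes, 23 had a named probe and 15 passed this filter, out of 7341 genes tested in all. The measurements came from whole NOD mouse embryos at embryonic day 10.5, hybridised to 12 mouse Illumina BeadChips, which read total RNA through beads that carry gene-specific probes. NOD is a strain in which autoimmune diabetes arises spontaneously. The NTD group was made of 4 embryos from diabetic pregnancies, each with a neural tube defect and each measured on its own. The diabetic group held 4 pools, each with RNA of 4 embryos from 4 diabetic pregnancies. The control group likewise comprised 4 pools with 4 embryos in each, of normal pregnancies. Dams counted as diabetic above 250 mg/dL blood glucose, and the protocol describes estrus induction with 5 units of gonadotropin for diabetic dams without saying what control dams received. All NTD samples were single embryos and all others were pools, so pooling and the defect cannot be told apart. The labels do not state whether embryos with defects entered the diabetic pools, whether pools of a group shared pregnancies, or whether replicates with the same number belong together, and p-values measure the spread between these samples.

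Folates carry single carbon units, taken mainly from serine and glycine in the mitochondria and sent to the cytosol as formate, where they are used to build purines and thymidylate and to turn homocysteine into methionine. Methionine feeds S-adenosylmethionine, the general methyl donor, and homocysteine can leave the cycle through transsulfuration to cysteine. In mice, loss of several of these genes, among them Folr1, Gldc, Amt and Mthfd1l, gives neural tube defects, and maternal folate supply lowers the risk of such defects in people.

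The arrays detected 12546 to 13736 of 32766 probes (38.3 to 41.9%), with 44 or 45 beads per probe at the median. Over the tested members, the bead standard error was 1.93 to 8.19% of the intensity, with a median of 3.63%. Pearson correlations across genes between samples of a group, where genes are not independent replicates, were 0.984 to 0.992 among NTD embryos, 0.991 to 0.996 among diabetic pools and 0.995 to 0.997 among control pools. Values are given below as log2 intensity after background correction and quantile normalization, where a difference of 1 is a doubling. Levels of different genes rest on different probes and were not compared, except to mark probes as bright or dim, with a rank for Folr1. In RNA of whole embryos, fewer cells of a type and less RNA per cell cannot be told apart. The neuroepithelial markers Nes, Fabp7 and Hes5 and the heart markers Myh6, Myh7, Actc1, Nppa and Myl7 were detected on all 12 arrays. None of the liver markers Alb, Ahsg, Apoh and Fgb was detected on any array. Of 8 named yolk sac endoderm genes, Afp and Apoa1 were detected on 12 arrays, Hnf4a on 11, Apoc2 on 6, Apob on 4, Amn on 2, and Apoa4 and Cubn on 0.

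Detection varied widely between members. The list had 50 named probes, of which 28 passed the filter, 21 were detected on all 12 arrays and 19 on none. The brightest probes of 11 genes were detected on all 12 arrays, namely Fpgs, Mthfd1, Mthfd2, Aldh1l2, Gldc, Dld, Gart, Atic, Mat2b, Ahcy and Cth. Both purine genes, Gart and Atic, were among them. Amt was detected on 11 arrays, Mtrr on 11, Mtr on 7 and Folr1 on 5. The Folr1 probe was detected in 1 of 4 NTD embryos, 1 of 4 diabetic pools and 3 of 4 control pools, and the Mtr probe in 2 of 4 NTD embryos, 3 of 4 diabetic pools and 2 of 4 control pools. The size of the differences of these 4 dim genes depended on how the background was treated: between diabetic and control pools, Folr1 differed by -0.10 with the correction used here, by -0.06 without one and by -0.31 in the authors' processed values.

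**Figure D1:**
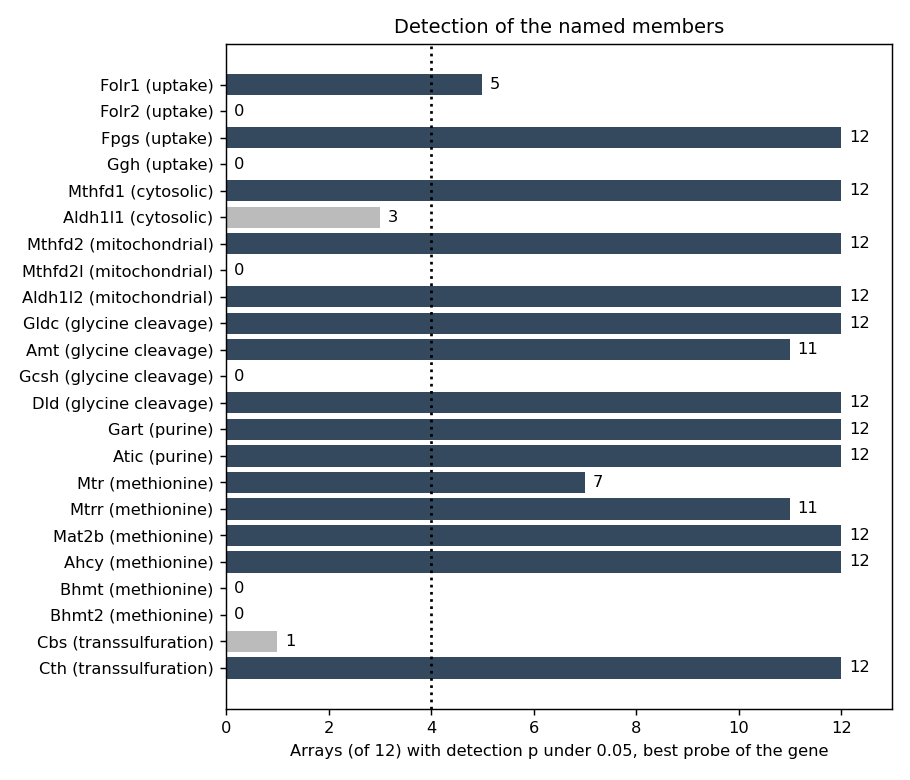
Number of the 12 arrays (x axis) on which the best probe of each of the 23 members with a named probe (y axis, with its step) had a detection p-value under 0.05. The dotted line marks the minimum of 4 arrays. Dark bars passed it and grey bars did not, and Aldh1l1 with 3 arrays lay nearest to the line from below and Folr1 with 5 from above.

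A further 8 members had named probes that stayed under the filter. The second folate receptor gene Folr2, the folate hydrolase gene Ggh, the mitochondrial dehydrogenase gene Mthfd2l, the glycine cleavage gene Gcsh, and the betaine-dependent methyltransferase genes Bhmt and Bhmt2 were detected on 0 arrays. The transsulfuration gene Cbs was detected on 1 array and the cytosolic formyltetrahydrofolate dehydrogenase gene Aldh1l1 on 3. These probes were not well above background, which does not show that the transcripts were missing. The remaining 7 members, the carriers Slc19a1 and Slc46a1, the thymidylate synthase gene Tyms, the serine hydroxymethyltransferase genes Shmt1 and Shmt2, the mitochondrial formate-producing gene Mthfd1l and the methionine adenosyltransferase gene Mat2a, were not analysed here. No tested member thus covered the transfer of carbon units from serine.

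Folate uptake and retention was measured through the receptor gene Folr1 and the synthase gene Fpgs, which adds glutamates that hold folate in the cell. Folr1 read 4.68, 4.87, 4.94 and 5.18 in NTD embryos, 4.89, 5.15, 4.78 and 5.04 in diabetic pools, and 5.07, 5.09, 5.06 and 5.04 in control pools. The control values lay within 0.05 of each other, and 3 of 4 NTD embryos and 2 of 4 diabetic pools were below all of them while 1 sample of either group was above. Without its 3 detected control pools the Folr1 probe would not have met the filter, which favours higher values in control pools. This order is therefore not independent of the filter. Its mean lay at percentile 0.327 of the tested genes, and a second Folr1 probe was detected on 0 arrays. The Folr1 difference from control pools was -0.15 ± 0.10 in NTD embryos and -0.10 ± 0.08 in diabetic pools, with limma adjusted p of 0.679 and 0.646. Here and below, ± after a difference is the SE from limma with 4 samples in each group. It draws on the variance of all genes and not on these samples alone. In the authors' processed values these differences were -0.52 and -0.31, also short of the threshold (limma adjusted p = 0.629 and 0.555). The NTD difference of Folr1 was -0.07 without NTD embryo 1 and -0.23 without NTD embryo 4 (limma adjusted p = 0.809 and 0.265), and the diabetic one was -0.04 without diabetic pool 3 and -0.16 without diabetic pool 2 (limma adjusted p = 0.886 and 0.386). Fpgs read 10.01, 9.74, 10.17 and 9.76 in NTD embryos, 9.97, 9.95, 9.995 and 9.86 in diabetic pools, and 9.88, 9.84, 9.86 and 9.79 in control pools. Of the diabetic pools, 3 of 4 exceeded every control pool and the other lay inside the control range, while NTD embryos fell on both sides of it. The Fpgs difference from control pools was 0.08 ± 0.10 in NTD embryos (limma adjusted p = 0.867) and 0.10 ± 0.06 in diabetic pools (limma adjusted p = 0.514).

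The cytosolic folate cycle was represented by Mthfd1, whose trifunctional protein interconverts the one-carbon forms of folate. Mthfd1 read 9.85, 9.95, 10.06 and 9.999 in NTD embryos, 10.07, 10.12, 10.18 and 9.86 in diabetic pools, and 9.91, 9.93, 10.02 and 10.11 in control pools. The spread of the diabetic pools enclosed that of the control pools, and the differences were -0.03 ± 0.08 in NTD embryos and 0.06 ± 0.08 in diabetic pools. In the mitochondria, Mthfd2 encodes a methylenetetrahydrofolate dehydrogenase and cyclohydrolase that is abundant in embryonic and dividing cells. Its values were 11.09, 10.83, 10.96 and 10.91 in NTD embryos, 11.02, 10.89, 10.999 and 10.92 in diabetic pools, and 10.89, 10.98, 11.05 and 10.97 in control pools. All 3 groups overlapped, with differences from control pools of -0.02 ± 0.08 in NTD embryos and -0.01 ± 0.07 in diabetic pools. Aldh1l2, the mitochondrial formyltetrahydrofolate dehydrogenase, read 6.10, 5.93, 6.55 and 6.19 in NTD embryos, 6.15, 6.05, 6.05 and 6.13 in diabetic pools, and 5.88, 6.14, 6.08 and 6.22 in control pools. Its highest value was that of NTD embryo 3, and the diabetic pools lay inside the control range.

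Glycine cleavage, the mitochondrial breakdown of glycine that loads a carbon unit onto folate, was measured through Gldc, Amt and Dld, which encode its decarboxylase, aminomethyltransferase and dihydrolipoamide dehydrogenase. Gldc read 10.59, 10.41, 10.93 and 11.03 in NTD embryos, 10.80, 10.88, 10.93 and 10.66 in diabetic pools, and 10.72, 10.59, 10.75 and 10.70 in control pools. NTD embryos 3 and 4 exceeded every control pool while NTD embryo 2 was below every one, and 3 of 4 diabetic pools were above the control range. The Gldc difference from control pools was 0.05 ± 0.13 in NTD embryos (limma adjusted p = 0.955) and 0.13 ± 0.08 in diabetic pools (limma adjusted p = 0.502). Amt read 5.53, 5.42, 5.32 and 5.37 in NTD embryos, 5.19, 5.23, 5.46 and 5.31 in diabetic pools, and 5.46, 5.10, 5.48 and 4.81 in control pools. The control pools were the most scattered here, with control pool 4 undetected and lowest, and they spanned both other groups apart from NTD embryo 1. The Amt difference from control pools was 0.20 ± 0.14 in NTD embryos and 0.08 ± 0.14 in diabetic pools. Without control pool 4 these were 0.06 and -0.05, and in the authors' processed values 0.45 and 0.25.

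Dld, whose protein also serves the pyruvate dehydrogenase complex, read 10.05, 10.48, 10.002 and 10.29 in NTD embryos, 9.87, 9.91, 9.99 and 10.50 in diabetic pools, and 10.27, 10.37, 10.14 and 10.43 in control pools. Diabetic pools 1, 2 and 3 lay below every control pool and diabetic pool 4 above every one. The Dld difference was -0.10 ± 0.12 between NTD embryos and control pools (limma adjusted p = 0.855) and -0.24 ± 0.13 between diabetic and control pools (limma adjusted p = 0.441). Without diabetic pool 4 the diabetic difference was -0.38 with a limma adjusted p of 0.0444, past the threshold of 0.05. In that setting 174 of 7341 genes were called, against 151 with all pools, and 1420 had an unadjusted p under 0.05, against 1060. Over 17 alternatives the limma adjusted p of Dld ran from 0.0444 to 0.711. The call came only with this library left out.

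Purine synthesis uses formyl folate at the steps run by Gart and Atic, both multifunctional enzymes of the route to inosine monophosphate. Gart read 10.64, 10.85, 11.03 and 11.15 in NTD embryos, 11.14, 11.02, 10.89 and 10.89 in diabetic pools, and 10.81, 10.87, 10.93 and 10.98 in control pools. NTD embryos lay on both sides of the control range, with 1 below and 2 above it, and 2 diabetic pools lay above it. The Gart difference from control pools was 0.02 ± 0.11 in NTD embryos and 0.09 ± 0.08 in diabetic pools. Atic read 10.40, 10.26, 10.45 and 10.33 in NTD embryos, 10.32, 10.35, 10.46 and 10.39 in diabetic pools, and 10.43, 10.48, 10.41 and 10.30 in control pools. Atic had the narrowest range of the 15 members, 1.16-fold between the lowest and the highest of the 12 arrays, and Amt the widest, 1.65-fold.

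The methionine cycle was measured through 4 genes. Mtr encodes the methionine synthase that joins the folate and methionine cycles, and Mtrr the reductase that reactivates it. Mtr read 5.00, 5.20, 4.90 and 5.23 in NTD embryos, 5.28, 5.29, 5.03 and 5.24 in diabetic pools, and 4.93, 5.05, 5.33 and 5.20 in control pools. Mtrr read 5.10, 5.12, 5.502 and 5.43 in NTD embryos, 5.20, 5.35, 5.65 and 5.59 in diabetic pools, and 5.45, 5.28, 5.42 and 5.17 in control pools. The 3 groups overlapped for both, with differences from control pools of -0.04 ± 0.11 in NTD embryos for either gene, and of 0.08 ± 0.10 for Mtr and 0.12 ± 0.11 for Mtrr in diabetic pools. Mat2b, the regulatory subunit of methionine adenosyltransferase, read 10.55, 10.44, 10.34 and 10.11 in NTD embryos, 10.36, 10.19, 10.33 and 10.42 in diabetic pools, and 10.50, 10.45, 10.39 and 10.20 in control pools. Its differences were -0.02 ± 0.11 in NTD embryos and -0.06 ± 0.08 in diabetic pools. Ahcy, which hydrolyses S-adenosylhomocysteine, the inhibitor left after methyl transfer, read 9.99, 10.06, 9.99 and 10.09 in NTD embryos, 9.98, 10.07, 10.08 and 10.07 in diabetic pools, and 10.12, 9.99, 9.88 and 9.99 in control pools. Every NTD embryo and every diabetic pool lay inside the control range of Ahcy.

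Transsulfuration was measured through Cth, cystathionine gamma-lyase, the enzyme that releases cysteine. Cth read 7.17, 7.26, 7.16 and 7.004 in NTD embryos, 6.93, 6.86, 6.99 and 7.12 in diabetic pools, and 7.37, 7.29, 7.17 and 7.08 in control pools. Diabetic pools 1, 2 and 3 were below every control pool, and diabetic pool 4 lay between the lower 2 control pools. The groups averaged 6.97 ± 0.11 in diabetic pools and 7.22 ± 0.13 in control pools (SD, n = 4 each). The difference of -0.25 ± 0.08 (limma SE) is a ratio of 0.839, with a 95% interval of 0.738 to 0.954. It did not pass the adjustment over all genes (limma unadjusted p = 0.0117, adjusted p = 0.185), where it ranked 465 among 7341 genes. Across 17 alternatives it kept its sign in 17, with values of -0.36 to -0.20 and limma adjusted p from 0.0585 to 0.409. The lowest adjusted p came with median scaling, which moved the median of all genes to -0.06 in this comparison. A second Cth probe was detected on 0 arrays. NTD embryos averaged 7.15 ± 0.11 (SD) for Cth. They differed by -0.08 ± 0.09 (limma SE) from control pools (limma adjusted p = 0.851) and by 0.18 ± 0.09 from diabetic pools (limma adjusted p = 0.996).

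**Figure D2:**
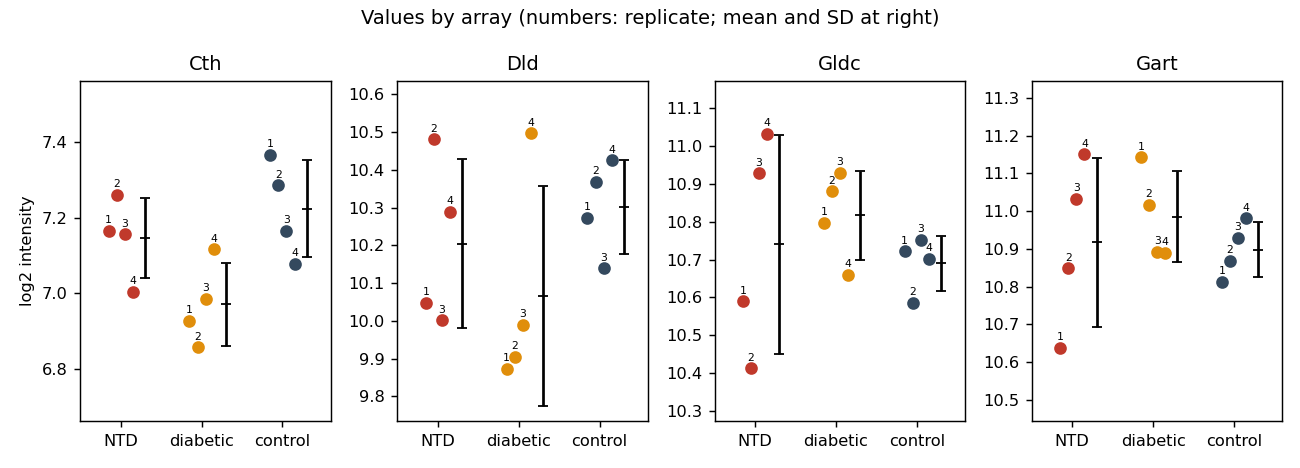
Log2 intensity (y axis, a separate range per panel) of Cth, Dld, Gldc and Gart on each array, by group on the x axis, with the replicate number above each point and the mean and SD at the right of each group (n = 4). Diabetic pool 4 stands above all control pools for Dld, and the NTD embryos run from below to above the control pools for Gldc and Gart.

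No tested member passed the adjusted threshold in any comparison. Between diabetic and control pools limma called 0 of 15 members, against 2.06% of all genes. 1 member, Cth, had an unadjusted p under 0.05, where 14.4% of all genes did, and in 0 members were the groups free of overlap, against 9.34% of all genes. Between NTD embryos and control pools the call was 0 of 15, against 0.0954% of all genes. There 0 members had an unadjusted p under 0.05, against 10.2%, and 0 had groups free of overlap, against 6.38%. Between NTD embryos and diabetic pools 0 of 15 members were called, as were 0% of all genes. In that comparison 0 members had an unadjusted p under 0.05, against 3.05%, and 0 had groups free of overlap, against 1.95%.

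The differences themselves were small. Between diabetic and control pools, 9 members were above 0 and 6 below, with a median of 0.06 against 0.01 over all genes and a range of -0.25 for Cth to 0.13 for Gldc. In the comparison of NTD embryos with control pools, 6 were above 0 and 9 below, with a median of -0.02 against 0.01 over all genes. The range there was -0.15 for Folr1, which met the filter through control pools, to 0.20 for Amt, and both genes were dim. Between NTD embryos and diabetic pools, 5 were above 0 and 10 below, with a median of -0.02 against -0.01 over all genes and a range of -0.16 for Mtrr to 0.18 for Cth. The comparisons share samples, so these counts are not independent of each other.

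For the 11 members detected on all arrays, the 95% intervals of the ratio spanned 0.783 to 1.31 between NTD embryos and control pools, 0.699 to 1.23 between diabetic and control pools, and 0.770 to 1.39 between NTD embryos and diabetic pools. The smallest difference among all called genes was 0.27 on the log2 scale between diabetic and control pools and 0.59 between NTD embryos and control pools. On its brightest probe, every member's difference was smaller in size than the smallest called one in the same comparison. Less bright Fpgs probes, described below, differed by 0.34 and 0.39 between diabetic and control pools. Between NTD embryos and diabetic pools no gene was called.

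**Figure D3:**
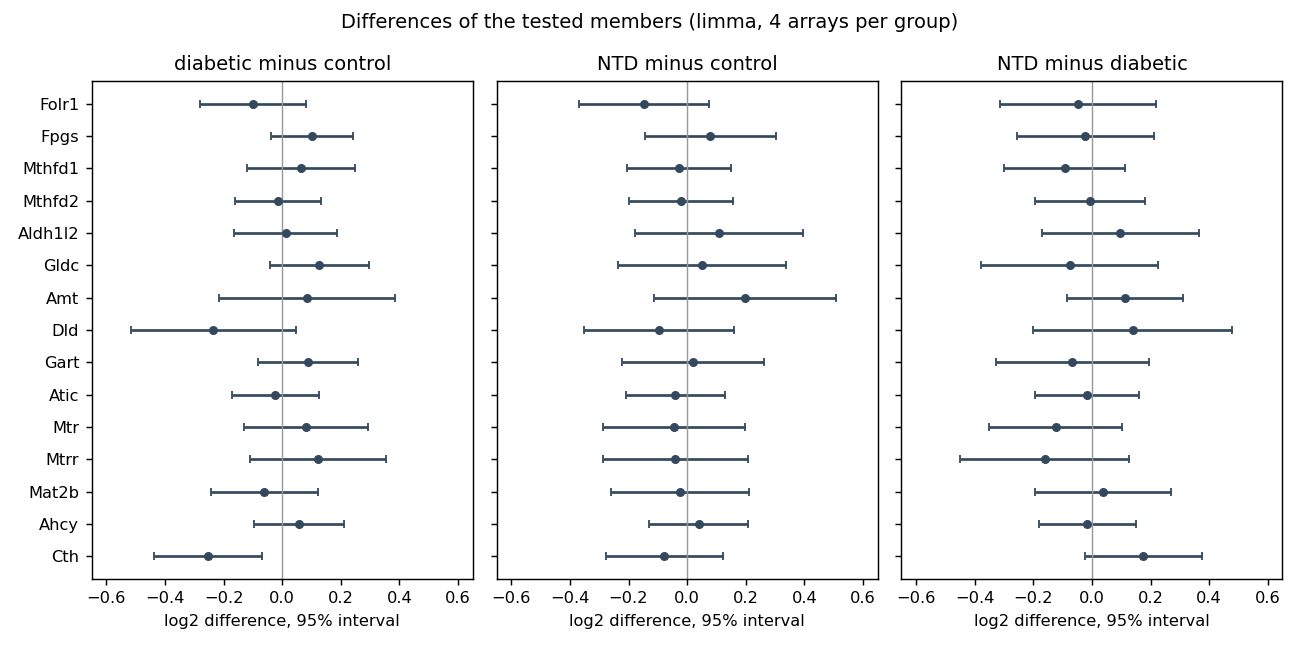
Log2 difference (x axis) with its 95% interval for the 15 tested members (y axis) between diabetic and control pools, NTD embryos and control pools, and NTD embryos and diabetic pools, from limma with 4 arrays per group. The interval of Cth between diabetic and control pools is the only one that leaves out 0, and its adjusted p was 0.185.

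Most members, like most genes, had a larger spread among NTD embryos, which were single embryos beside pools of 4. The median SD of the 15 members was 0.18 in NTD embryos, 0.12 in diabetic pools and 0.10 in control pools, beside 0.16, 0.13 and 0.10 over all genes. Of the 15 members, 10 had a larger SD in NTD embryos than in control pools, which was so for 77.3% of all genes. The SD of Gldc was 0.29 in NTD embryos, 0.12 in diabetic pools and 0.07 in control pools, and that of Gart was 0.22, 0.12 and 0.07 in the same groups. The SD was smaller in NTD embryos than in control pools for Mthfd1, Mtr, Ahcy, Cth and Amt. For Amt it was largest in control pools, at 0.32, against 0.09 in NTD embryos. Averaged over the 15 members as differences from the control mean, NTD embryos stood at -0.05, -0.05, 0.05 and 0.04, diabetic pools at -0.02, -0.02, 0.02 and 0.03, and control pools at 0.01, -0.005, 0.03 and -0.04. NTD embryos 1 and 2 had the lowest of these means and NTD embryos 3 and 4 the highest.

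Markers of other cell types varied over the same embryos. Means of 8 erythroid genes, as differences from the control mean, were -0.24, 0.06, -0.63 and -0.41 in NTD embryos, against -0.17 to 0.13 in control pools. Those of 5 heart genes were 0.02, 0.41, 0.68 and 0.37 in NTD embryos, against -0.04 to 0.03 in control pools. The 8 macrophage genes stood at -0.42, 0.47, -0.35 and -0.51 in NTD embryos, against -0.13 to 0.13 in control pools. The 3 neuroepithelial genes stood at 0.21, -0.19, -0.31 and 0.13 in NTD embryos, against -0.08 to 0.05 in control pools. Means of 5 yolk sac endoderm genes were -0.17, 0.35, 0.27 and -0.38 in NTD embryos, against -0.12 to 0.20 in control pools. Diabetic pools ran from -0.21 to 0.05 for the erythroid genes and from -0.04 to 0.28 for the heart genes. They ran from -0.19 to -0.02 for the macrophage, -0.04 to 0.08 for the neuroepithelial and -0.09 to 0.14 for the yolk sac genes. The part of these markers in the spread of the members was not tested.

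**Figure D4:**
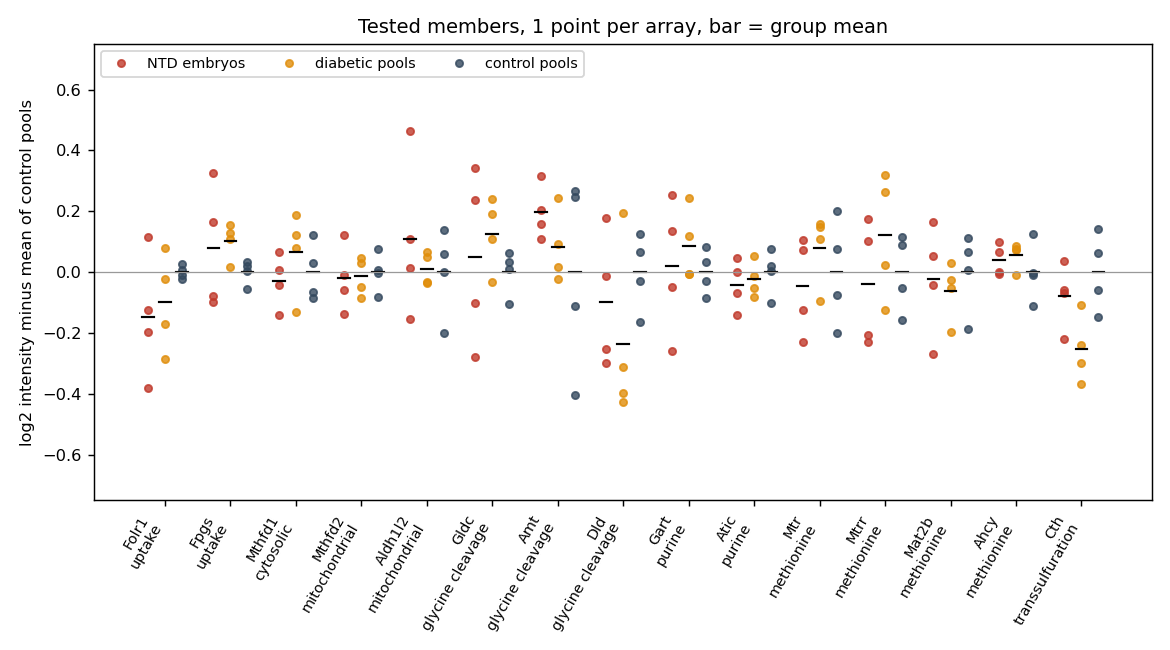
Log2 intensity of the 15 tested members on each array, as the difference from the mean of the control pools (y axis), with 1 point per array, the step under each gene name (x axis) and a bar at the mean of each group (n = 4). Diabetic pools sit below control pools for Cth in 3 of 4 cases, and the NTD embryos spread widest for Gldc and Aldh1l2.

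Of the tested members, 9 had 13 further detected probes, which measured the same genes with other beads. Between diabetic and control pools, 11 of the 13 had the sign of the brightest probe, and 2 had an unadjusted p under 0.05, where 13.2% of all single probes did. Both belonged to Fpgs. The first read 6.15, 5.497, 6.42 and 5.91 in NTD embryos, 6.32, 5.93, 6.30 and 6.06 in diabetic pools, and 5.61, 6.004, 5.96 and 5.66 in control pools. The second read 5.35, 5.19, 5.66 and 5.73 in NTD embryos, 5.78, 5.93, 5.64 and 5.78 in diabetic pools, and 5.65, 5.22, 5.36 and 5.33 in control pools. Diabetic and control pools overlapped on both, on the second by 1 pool of each group. The differences were 0.34 ± 0.12 (limma adjusted p = 0.218) and 0.39 ± 0.10 (limma adjusted p = 0.0871, over 11247 probes), set beside 0.10 ± 0.06 for the brightest Fpgs probe and 0.07 ± 0.14 for the remaining one. Fpgs was therefore uncertain in size. Its probes were above 0 in 4 of 4 cases, but they read the same samples. The further Fpgs probes were dim, with intensities of 66.2 to 115, against 812 to 1150 for the brightest.

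The probes differed more often in sign between NTD embryos and control pools, with 6 of 13 further probes on the side of the brightest one. There 2 further probes had an unadjusted p under 0.05, against 9.82% of all single probes. The second Mtrr probe read 5.25, 5.4998, 5.63 and 5.54 in NTD embryos, 5.39, 5.29, 5.08 and 5.4996 in diabetic pools, and 5.05, 5.12, 5.31 and 5.18 in control pools, with 3 of 4 NTD embryos above every control pool. Its difference between NTD embryos and control pools was 0.31 ± 0.10 (limma adjusted p = 0.332), where the brightest Mtrr probe gave -0.04 ± 0.11. Both Mtrr probes were dim, with intensities of 66.9 to 81.5 for the second, detected on 10 arrays, and 65.7 to 83.6 for the brightest. The second Ahcy probe gave 0.21 ± 0.09 (limma adjusted p = 0.47), where the brightest gave 0.04 ± 0.08. Between NTD embryos and diabetic pools, 10 of 13 further probes had the sign of the brightest, and 1 had an unadjusted p under 0.05, against 2.78% of all single probes. That was the second further Fpgs probe, at -0.30 ± 0.13 (limma adjusted p = 0.998).

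**Figure D5:**
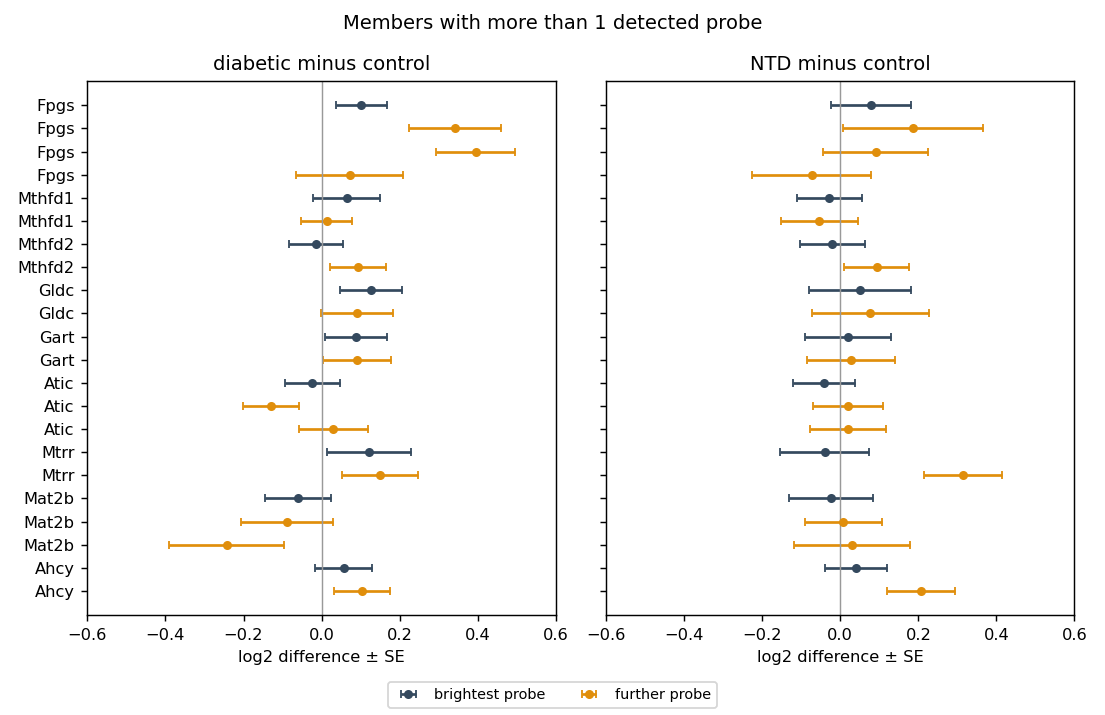
Log2 difference ± SE (x axis) of the brightest and the further detected probes of 9 members (y axis, 1 line per probe), between diabetic and control pools on the left and NTD embryos and control pools on the right. The further Fpgs probes lie to the right of the brightest one on the left panel, up to 0.39, except for 1 at 0.07, and the second Mtrr probe lies at 0.31 on the right panel.

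Genes next to these pathways were described from 7 lists of 110 genes, of which 50 genes in 6 lists were tested. Limma called 0 of the 50 in each comparison, against 0.0954% of all genes between NTD embryos and control pools, 2.06% between diabetic and control pools and 0% between NTD embryos and diabetic pools. An unadjusted p under 0.05 was found for 2 of 50 between NTD embryos and control pools, against 10.2% of all genes, for 5 of 50 between diabetic and control pools, against 14.4%, and for 0 of 50 between NTD embryos and diabetic pools, against 3.05%. Their median difference was 0.03 in the comparison of NTD embryos with control pools, 0.03 in that of diabetic with control pools and 0.01 in that of NTD embryos with diabetic pools. A list of serine synthesis and uptake genes had no tested member and was not analysed here.

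Of 11 tested genes that use or salvage methyl donors, 8 were above 0 and 3 below between diabetic and control pools, with a median of 0.10. Over all genes 53.5% were above 0, with a median of 0.01. An unadjusted limma p under 0.05 was found for 2 of the 11, against 14.4% of all genes. Gamt, which makes creatine with a methyl group from S-adenosylmethionine, read 8.07, 7.82, 8.27 and 8.01 in NTD embryos, 7.98, 8.03, 8.04 and 8.03 in diabetic pools, and 7.88, 7.76, 7.80 and 7.79 in control pools. Every diabetic pool was above every control pool, with a difference of 0.21 ± 0.06 (limma adjusted p = 0.122). Diabetic and control pools were free of overlap, in either direction, for 9.34% of all genes. NTD embryos differed from control pools in Gamt by 0.23 ± 0.10 (limma adjusted p = 0.436). Mtap, which salvages methionine from methylthioadenosine, differed by 0.17 ± 0.06 between diabetic and control pools (limma adjusted p = 0.226), and Ahcyl2, a relative of Ahcy, by 0.15 ± 0.07. Among 8 other folate and cobalamin genes, Mmachc, which processes cobalamin for methionine synthase, differed by 0.28 ± 0.10 between diabetic and control pools (limma adjusted p = 0.214), Mthfsd by -0.19 ± 0.11 and Mthfs, which returns formyl folate to the cycle, by 0.09 ± 0.07.

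The 3 other tested purine genes were Impdh1 and Gmps, of the route to guanylate, and Adsl, which acts in the common route. They differed between diabetic and control pools by 0.19 ± 0.09, -0.16 ± 0.09 and 0.04 ± 0.12, with no shared direction. The 8 tested pyrimidine and deoxynucleotide genes lay between -0.07 and 0.09 in that comparison, among them Dctd at 0.09, Dck at -0.07 and Dut at 0.07. Downstream of Cth, the 7 tested genes of glutathione synthesis, cysteine breakdown and sulfide oxidation had a median of 0.04 between diabetic and control pools. Among them, Mpst differed by 0.25 ± 0.16, Ethe1 by 0.13 ± 0.08 and Gss, glutathione synthetase, by 0.13 ± 0.08.

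The 13 tested S-phase genes, which mark DNA replication and with it the demand for nucleotides, had medians of -0.04 between NTD embryos and control pools and -0.003 between diabetic and control pools. Ccne2, cyclin E2, read 9.25, 9.14, 8.78 and 9.08 in NTD embryos, 8.92, 8.83, 8.71 and 9.08 in diabetic pools, and 9.37, 9.22, 9.17 and 9.20 in control pools. Every diabetic pool was below every control pool, where 9.34% of all genes had these groups free of overlap. The Ccne2 difference of -0.35 ± 0.09 missed the threshold (limma adjusted p = 0.0704). Cdt1, which licenses replication origins, differed in the other direction, by 0.20 ± 0.08 (limma adjusted p = 0.262), and Mcm10 by -0.13 ± 0.07.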

How the data were processed

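Total RNA of 12 samples was measured on mouse Illumina BeadChips, 200 ng per sample, and the arrays were read with GenomeStudio, per the submitters' processing notes. Per the file headers, the authors deposited for each probe and array an average signal intensity without normalization, a detection p-value, a bead standard error and a bead number, the last 2 being other columns. A second deposited table held processed linear intensities whose normalization is not given in the sources used here; it was used as a further setting, after raising values below 1 to 1. Per-sample columns left unused numbered 0.

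Intensities were processed with neqc of limma 3.58.1 in R 4.3.3, which corrects the background from the detection p-values, adds an offset of 16, quantile-normalizes and takes log2. The platform annotation gave 1 symbol for 23340 of 32766 probes, and 23267 of 23353 annotated probes were updated by Entrez identifier. Probes detected on at least 4 arrays numbered 13876, 11247 of them with 1 gene name, and the brightest stood for each of 7341 genes. Each comparison was fitted on 8 arrays with lmFit and eBayes, two-sided, with Benjamini-Hochberg adjustment over all genes and a threshold of 0.05. Further probes were fitted over 11247 probes. The procedure was tested on simulated data.

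The members, lists and markers were chosen with earlier results of these data known. Every tested member is named, with the 3 genes of smallest p between diabetic and control pools in each further list and the defining markers. Alternatives changed the background correction, scaling, filter, samples, weights, block and probe.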

Additional observations from a re-analysis of the deposited data

Results flagged for a closer look

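Within the groups of 4, 1 of 45 combinations of member and group held a sample beyond Dixon's 95% critical value, where chance gives about 5%. Ahcy read 9.98 in diabetic pool 1, against 10.07 to 10.08 in the other diabetic pools. The gap was 0.862 of the range of the group, a group whose SD of 0.04 was the smallest of any member in diabetic pools, and the value lay within the control range.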

How the results depend on the processing

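No member was called between NTD embryos and control pools or NTD embryos and diabetic pools under any alternative run. Between diabetic and control pools 0 to 1 were called with 1 replicate left out, the 1 being Dld without diabetic pool 4 (-0.38, limma adjusted p = 0.0444). That setting called 174 of 7341 genes, against 151 in the main fit. Signs were kept in 231 of 264 values between NTD embryos and control pools, 249 of 264 between diabetic and control pools and 231 of 249 between NTD embryos and diabetic pools. Sizes moved in some dim members. Over the alternatives Folr1 ran from -0.52 to -0.07 between NTD embryos and control pools (-0.15 as reported) and from -0.31 to -0.04 between diabetic and control pools (-0.10 as reported), with the authors' table at the far end of both. Amt ran from 0.06 to 0.45 between NTD embryos and control pools and from -0.05 to 0.25 between diabetic and control pools. Among the signs that turned were those of other probes, between NTD embryos and control pools to -0.073 for Fpgs, 0.094 for Mthfd2 and 0.31 for Mtrr, between diabetic and control pools to 0.094 for Mthfd2, and between NTD embryos and diabetic pools to 0.15 for Atic, 0.16 for Mtrr and 0.10 for Ahcy. Median scaling gave -0.067 for Ahcy between NTD embryos and control pools, where it moved the median of all genes to -0.10.

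The number of all genes called moved with several settings, and the cause was not tested. Between diabetic and control pools it was 151, but 96 with the authors' table, 36 with all 12 arrays in 1 fit, 57 with a replicate block, 42 without control pools 3 and 4, and 58 to 174 with 1 replicate left out. Median scaling called 164, split into 23 higher and 141 lower, against 62 and 89. Between NTD embryos and control pools it was 7, but 1 with the authors' table, 19 with median scaling, 2 without a filter, 4 with detection on all 12 arrays, 31 with all arrays in 1 fit, 41 with array weights, 1 with a replicate block, 1 without control pools 3 and 4, and 1 to 49 with 1 replicate left out. Same-numbered samples correlated at -0.27 to 0.08 between diabetic and control pools and 0.01 to 0.30 between NTD embryos and control pools. These values are not on the scale of the correlations of gene levels within groups, which were 0.984 to 0.997. Pairs above 0.1 numbered 3 between NTD embryos and control pools, and 3 samples there correlated best with their own number. Both counts were 0 between diabetic and control pools and 1 between NTD embryos and diabetic pools. The main fits did not use the shared numbers as pairs, and whether these mark pairs or a batch cannot be told here. A slide block was not run, since the headers name no slides. The number of arrays, 4 per group, limits the precision of every member.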

Other observations

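Without the detection filter, the 8 members whose probes stayed under it could be fitted among 13334 genes. Folr2, the second folate receptor and in mice a macrophage marker, was detected on 0 arrays and read 4.79, 4.80, 4.93 and 4.73 in NTD embryos, 5.06, 4.57, 4.89 and 4.67 in diabetic pools, and 4.53, 4.57, 4.63 and 4.54 in control pools. Every NTD embryo lay above every control pool, with a limma unadjusted p of 0.00131 and an adjusted p of 0.234. In that fit 8.46% of all genes had an unadjusted p under 0.05. Groups free of overlap were counted only among genes that passed the filter, at 6.38%. Between diabetic and control pools Folr2 had a limma unadjusted p of 0.0470 and an adjusted p of 0.429, where 11.3% of all genes had an unadjusted p under 0.05. Folr2 was below detection in all 3 groups, so this order and these p-values are of readings at background and no fold is given. Folr2 is described because its p was the smallest of the 8. The 8 tested macrophage genes had a median difference of -0.23 between NTD embryos and control pools. Gcsh, the glycine cleavage carrier, was also detected on 0 arrays and read 4.62, 4.65, 4.56 and 4.60 in NTD embryos, against 4.81, 4.83, 4.80 and 4.61 in diabetic pools. Its limma unadjusted p was 0.0251 and its adjusted p 0.996, where 3.68% of all genes had an unadjusted p under 0.05.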
